A study of Homo sapiens with 12 samples.

Results

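The genes described are the zinc finger genes of human chromosome 19: protein-coding genes on chromosome 19 whose symbol is ZNF followed by digits and whose mean level over all 12 libraries was at least 1 FPKM (fragments per kilobase of gene length, scaled by a total per library: a level per length). The rule took 153 of the 58735 genes listed, and 153 of the 240 chromosome 19 genes so named. The other 87 lay below 1 FPKM. The members were thus chosen by name, position and mean level over all libraries, so that level is a description and not a result. ZNF829 at 1.001 and ZNF772 at 1.02 FPKM were just inside the limit, and ZNF611 at 0.990 and ZNF555 at 0.974 FPKM just outside. RNA was sequenced from 2 human neuroblastoma lines, tumour cells of the sympathetic nervous system, in 4 groups of 3 libraries with no treatment named. The groups were SK-N-SH shL5 (genotype given as TSPYL5 knockdown), SK-N-SH shNC (genotype WT), SK_N_BE2 shL5 (TSPYL5 knockdown) and SK_N_BE2 shNC (WT). For the second line the labels conflict: titles read SK_N_BE2, whereas the cell line field and source name read SH-SY5Y. It is called SK_N_BE2 here. TSPYL5 encodes a TSPY-like nucleosome assembly protein. The labels do not say whether the 3 libraries of a group came from separate cultures, from 1 clone or from pooled cells, so the p-values below rest on a spread between libraries that may be technical.

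Zinc finger genes of this kind arose by tandem duplication and stand in dense runs along chromosome 19. Most encode a KRAB domain followed by an array of C2H2 zinc fingers: the fingers read a DNA sequence, often inside a transposable element, and the KRAB domain binds TRIM28, a scaffold that brings the histone methyltransferase SETDB1, HP1 proteins and, at some sites, DNA methyltransferases. The genes themselves can carry the same repressive histone mark over their finger-coding exons, and several are known to be silenced by promoter methylation in tumours.

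Promoter sequences are shown for 6 members on which the results turn: ZNF536 and ZNF544, the members nearest to silent in 2 groups, ZNF90 and ZNF85 of the run of genes that was high in SK-N-SH shL5 and SK_N_BE2 shNC, and ZNF226 and ZNF865 of the runs that were high in the other pair of groups. Each is 300 bases long, from 250 before to 50 after the start of a RefSeq transcript on GRCh38.p14, written 5′ to 3′ on the gene's own strand, with CG dinucleotides, the sites of DNA methylation, in capitals. They lie at chr19:30228260-30228559 on the plus strand for ZNF536, chr19:58228664-58228963 on the plus strand for ZNF544, chr19:20077750-20078049 on the plus strand for ZNF90, chr19:20923001-20923300 on the plus strand for ZNF85, chr19:44164850-44165149 on the plus strand for ZNF226 and chr19:55605397-55605696 on the plus strand for ZNF865.

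ZNF536: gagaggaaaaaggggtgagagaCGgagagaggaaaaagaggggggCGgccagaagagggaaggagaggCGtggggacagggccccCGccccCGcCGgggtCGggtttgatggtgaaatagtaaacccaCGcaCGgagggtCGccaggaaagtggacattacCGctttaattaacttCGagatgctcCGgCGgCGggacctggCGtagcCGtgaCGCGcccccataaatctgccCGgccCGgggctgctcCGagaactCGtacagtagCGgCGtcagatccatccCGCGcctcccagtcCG
ZNF544: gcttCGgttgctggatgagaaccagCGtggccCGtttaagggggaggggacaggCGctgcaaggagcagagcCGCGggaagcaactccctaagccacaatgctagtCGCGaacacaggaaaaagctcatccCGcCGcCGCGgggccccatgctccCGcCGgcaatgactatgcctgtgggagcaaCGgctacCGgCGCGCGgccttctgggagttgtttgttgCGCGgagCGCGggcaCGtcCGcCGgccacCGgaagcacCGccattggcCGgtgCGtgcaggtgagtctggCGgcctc
ZNF90: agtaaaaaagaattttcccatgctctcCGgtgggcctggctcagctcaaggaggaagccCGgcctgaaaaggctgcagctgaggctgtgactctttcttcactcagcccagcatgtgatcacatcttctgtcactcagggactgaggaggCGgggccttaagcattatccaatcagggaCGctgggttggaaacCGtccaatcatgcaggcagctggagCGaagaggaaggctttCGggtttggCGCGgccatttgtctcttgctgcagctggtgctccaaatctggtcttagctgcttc
ZNF85: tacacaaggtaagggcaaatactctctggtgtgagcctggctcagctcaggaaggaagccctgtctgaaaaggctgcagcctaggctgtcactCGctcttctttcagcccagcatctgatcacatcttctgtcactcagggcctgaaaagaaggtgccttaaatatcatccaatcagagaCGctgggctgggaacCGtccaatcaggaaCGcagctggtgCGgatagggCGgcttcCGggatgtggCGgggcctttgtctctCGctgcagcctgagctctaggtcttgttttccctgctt
ZNF226: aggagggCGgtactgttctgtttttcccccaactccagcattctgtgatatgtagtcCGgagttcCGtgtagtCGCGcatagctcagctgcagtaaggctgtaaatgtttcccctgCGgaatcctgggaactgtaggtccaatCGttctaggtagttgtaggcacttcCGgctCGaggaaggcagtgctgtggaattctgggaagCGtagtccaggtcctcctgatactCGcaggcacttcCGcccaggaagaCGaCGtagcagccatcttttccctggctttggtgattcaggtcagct
ZNF865: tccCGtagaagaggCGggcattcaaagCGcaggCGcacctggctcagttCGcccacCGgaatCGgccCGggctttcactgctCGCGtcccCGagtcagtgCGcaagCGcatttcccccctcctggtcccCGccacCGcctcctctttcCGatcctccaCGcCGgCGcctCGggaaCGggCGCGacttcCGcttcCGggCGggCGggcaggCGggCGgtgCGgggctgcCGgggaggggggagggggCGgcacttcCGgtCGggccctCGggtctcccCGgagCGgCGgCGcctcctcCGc

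RefSeq promoters were matched for 137 of the 153 members. The window held a median of 21 CG dinucleotides over these 137 members, against 14 over all 35116 promoters listed. The 6 promoters shown differ in this count, with 28 in ZNF536, 31 in ZNF544, 9 in ZNF90, 9 in ZNF85, 14 in ZNF226 and 40 in ZNF865. The sequence CACGTG, which reads the same on both strands and is the E-box bound by MYC family proteins, was present in 3 of 137 member promoters (2.19%), those of ZNF507, ZNF587 and ZNF324, against 7.26% of all promoters of the same length. A match describes these letters only.

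Facts of the whole series bear on every comparison below. Whole reads recovered from the FPKM values came to 15425460 to 19249018 per library. TSPYL5, the gene named by the genotype, had 17.1, 18.3 and 17.8 FPKM in SK-N-SH shL5 and 13.1, 13.4 and 12.2 FPKM in SK-N-SH shNC, so it was higher in the libraries labelled knockdown. In the second line it had 13.3, 12.4 and 12.6 FPKM in SK_N_BE2 shL5 and 24, 24.4 and 25.8 FPKM in SK_N_BE2 shNC. The target gene thus ran opposite to the genotype label in the first line, and every group is called by its label only. The oncogene MYCN averaged 1028 ± 49 FPKM in SK-N-SH shL5 and 1040.4 ± 33.3 FPKM in SK_N_BE2 shNC (SD, n = 3 each). It had 6 reads in SK-N-SH shNC and 0 reads in SK_N_BE2 shL5. With TSPYL5 opposite to its label in SK-N-SH and MYCN near 0 in 1 group of each labelled line, an effect of the hairpin and a difference between cell lines cannot be told apart in the comparisons below. The 10 noradrenergic neuroblast markers summed to 1189 to 1279 FPKM per library in SK-N-SH shL5 and 120 to 139 FPKM in SK-N-SH shNC. They summed to 93.1 to 122 FPKM in SK_N_BE2 shL5 and 1339 to 1382 FPKM in SK_N_BE2 shNC. Of them, 9 were higher and 1 lower in SK-N-SH shL5 than in SK-N-SH shNC, and 9 were lower in SK_N_BE2 shL5 than in SK_N_BE2 shNC. TH, the first enzyme of catecholamine synthesis, had 0 reads in SK-N-SH shNC and SK_N_BE2 shL5. The 10 mesenchymal markers summed to 265 to 271 FPKM in SK-N-SH shL5 and 871 to 893 FPKM in SK-N-SH shNC. They summed to 824 to 892 FPKM in SK_N_BE2 shL5 and 243 to 260.1 FPKM in SK_N_BE2 shNC. Not all ran with their sum: 7 were lower, 1 higher and 2 did not pass in SK-N-SH shL5. In SK_N_BE2 shL5, 9 were higher and 1 lower than in SK_N_BE2 shNC. The 4 epithelial markers summed to 0.709 to 0.803 FPKM in SK-N-SH shL5 and 4.06 to 4.66 FPKM in SK-N-SH shNC. They summed to 4.29 to 4.87 FPKM in SK_N_BE2 shL5 and 0.708 to 0.995 FPKM in SK_N_BE2 shNC, with KRT5 at 0 reads in every group. Only 2 of these 4 were tested, and they ran opposite ways. Their log2 folds were -2.31 and 0.40 in SK-N-SH, and 2.34 and -0.45 in SK_N_BE2. The 5 blood and endothelial markers summed to 1.15 to 1.29 FPKM in SK-N-SH shL5 and 0.0601 to 0.0984 FPKM in SK-N-SH shNC, and to 0.052 to 0.101 FPKM in SK_N_BE2 shL5 and 0.693 to 0.831 FPKM in SK_N_BE2 shNC, with CD3E at 0 reads in every group. The 4 Schwann cell markers summed to at most 1.83 FPKM in any library. The part that these marker differences have in the results on zinc finger genes was not tested. In RNA from many cells, fewer cells of a type and less RNA per cell cannot be told apart.

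The members were mostly of low level. Mean FPKM over the 12 libraries had a median of 1.78 among members, against 4.62 among all 15856 genes tested (mean of at least 0.5 FPKM), and 122 of the 153 lay under 3 FPKM. The median member had 165.5 reads per library. The 3 highest were ZNF428, ZNF146 and ZNF358. ZNF146, which encodes a protein of zinc fingers alone with no KRAB domain, had 25.7, 25.1 and 23.4 FPKM in SK-N-SH shL5 and 18.8, 17.9 and 17.4 FPKM in SK-N-SH shNC. It had 18.3, 18.4 and 19.8 FPKM in SK_N_BE2 shL5 and 25.7, 28.1 and 27.6 FPKM in SK_N_BE2 shNC. In each line its groups did not overlap. ZNF428 stood at 26.9 ± 1.16 FPKM in SK-N-SH shL5, 22.2 ± 1.19 in SK-N-SH shNC, 23.4 ± 0.48 in SK_N_BE2 shL5 and 28.5 ± 0.492 in SK_N_BE2 shNC. All 153 members passed the filter on low values by their rule, and 46 of them averaged under 1 FPKM in at least 1 group. Ordered by start and divided at gaps over 500 kb, all 240 genes fell into 20 positional clusters, numbered from the p telomere. Of these, 9 held at least 5 members, with 142 members in all.

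**Figure D1:**
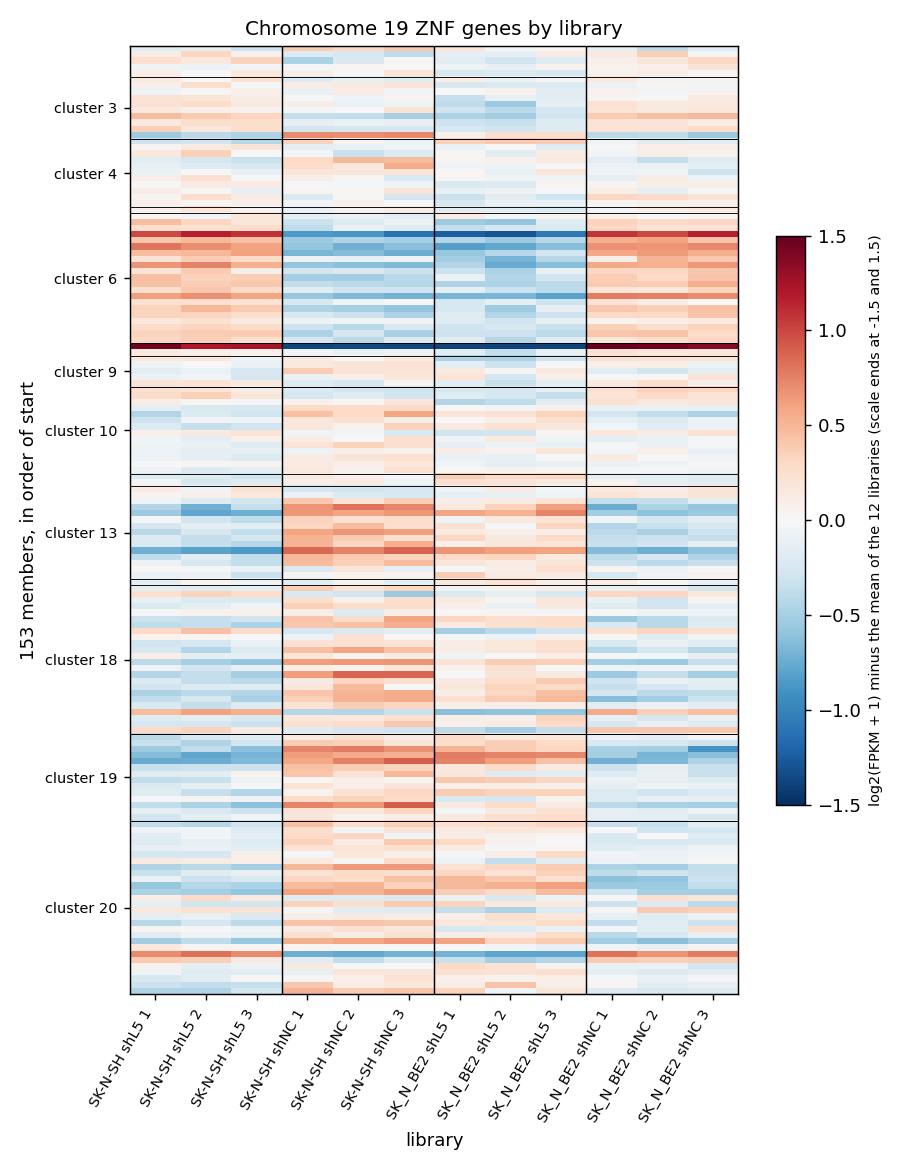
Heat map of log2(FPKM + 1) of the 153 members (rows, in order of start along chromosome 19) in the 12 libraries (columns), each value minus the member's mean over the 12 libraries, with lines around the 9 clusters of at least 5 members. Cluster 6 is red in SK-N-SH shL5 and SK_N_BE2 shNC and blue in the other groups, and cluster 19 is mostly the other way round.

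The first comparison was SK-N-SH shL5 against SK-N-SH shNC, the groups of that line labelled TSPYL5 knockdown and WT. Of the 153 members 126 passed the test (limma on log2(FPKM + 1), Benjamini-Hochberg adjusted over all genes, threshold 0.05), 48 higher and 78 lower. The background of this comparison was wide: 79.8% of all genes tested passed, 40.7% higher and 39.0% lower. As shares of the 153 members, 31.4% were higher and 51.0% lower. The median log2 fold was -0.23 over the members and 0.02 over all genes tested. In SK_N_BE2 shL5 against SK_N_BE2 shNC, 120 of 153 members passed, 69 higher and 51 lower, against 80.0% of all genes tested (39.9% higher, 40.2% lower). The median log2 fold was 0.13 over the members and -0.02 over all genes. This balance depended on scaling: after rescaling each library to TPM (a constant sum per library), 54 members were higher and 57 lower in SK_N_BE2 shL5, and the median of all genes moved to -0.11. These comparisons share no library. Of the members, 67 were lower in SK-N-SH shL5 and higher in SK_N_BE2 shL5 than in the shNC libraries of the same line, and 43 were higher in SK-N-SH shL5 and lower in SK_N_BE2 shL5. None passed in the same direction in both lines. The joint counts were not made over all genes tested, so they cannot be read as particular to the members. The difference between the lines' effects (SK_N_BE2 minus SK-N-SH), tested as an interaction, passed for 136 of 153 members, against 84.9% of all genes. It was positive for 82 members and negative for 54, against 41.8% and 43.1% of all genes.

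**Figure D2:**
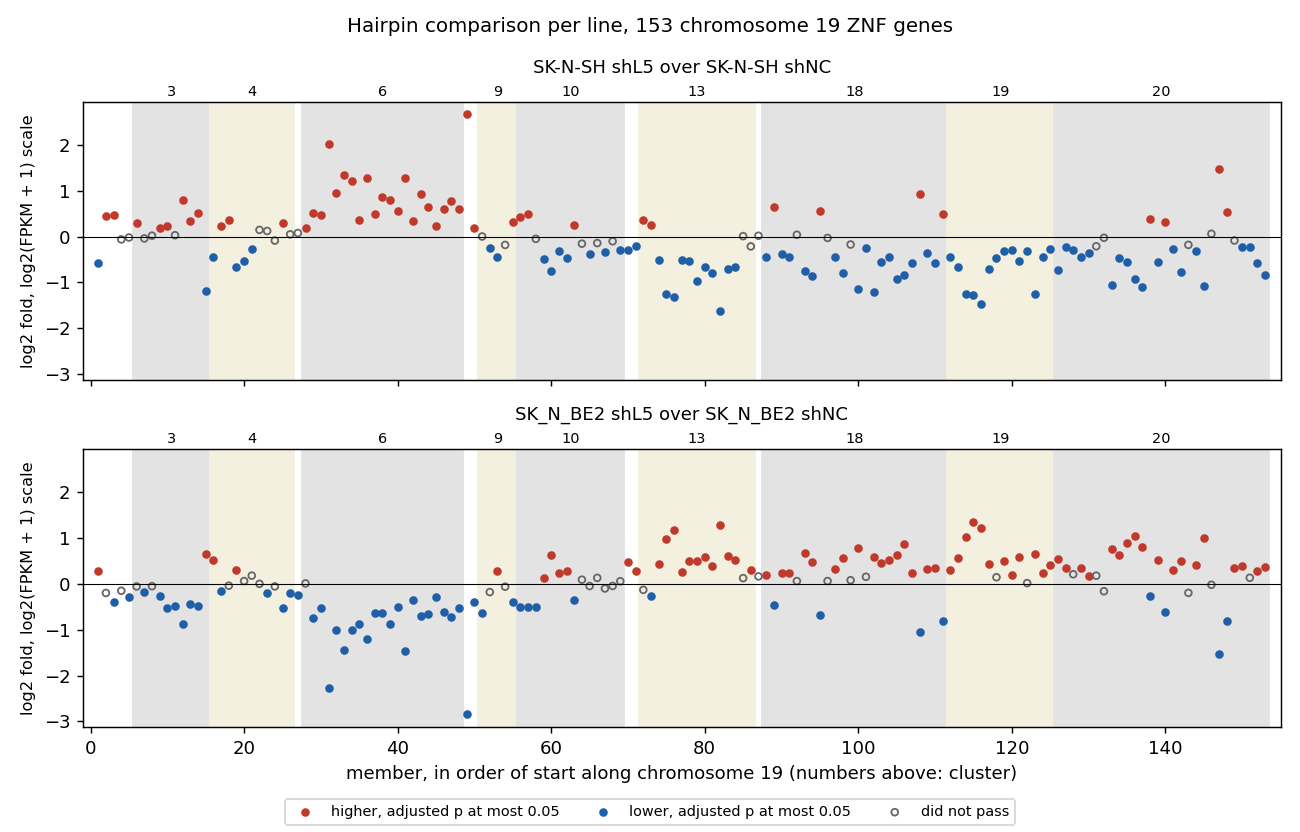
Log2 fold on the log2(FPKM + 1) scale (vertical axis) of each of the 153 members in order of start along chromosome 19 (horizontal axis), for SK-N-SH shL5 over SK-N-SH shNC (top) and SK_N_BE2 shL5 over SK_N_BE2 shNC (bottom). Shading marks the 9 numbered clusters, and filled points passed the test. All 21 members of cluster 6 lie above 0 in the top panel, and all 14 of cluster 19 lie below it.

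Cluster 6, at 19.7 to 24.1 Mb of GRCh38 on the short-arm side of the centromere, held 21 members, which moved together. All 21 were higher in SK-N-SH shL5 than in SK-N-SH shNC, against 40.7% of all genes tested, with a median log2 fold of 0.64. In SK_N_BE2 shL5, 20 of the 21 were lower than in SK_N_BE2 shNC (95.2%, against 40.2% of all genes tested). The median log2 fold was -0.70, and ZNF101 did not pass there. Both counts were also reached by voom on whole reads and after rescaling to TPM. The summed level of the cluster ran from 61.1 to 64.7 FPKM in SK-N-SH shL5 and from 25.8 to 26.2 FPKM in SK-N-SH shNC. It ran from 22.9 to 26.7 FPKM in SK_N_BE2 shL5 and from 62.3 to 64.5 FPKM in SK_N_BE2 shNC. The groups did not overlap within either line.

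ZNF738, the highest member of cluster 6 (chr19:21358930-21379302, plus strand), had 7.1, 7.52 and 6.95 FPKM in SK-N-SH shL5 and 2.57, 2.34 and 2.23 FPKM in SK-N-SH shNC. It had 2.27, 2.29 and 2.03 FPKM in SK_N_BE2 shL5 and 8.01, 7.92 and 7.68 FPKM in SK_N_BE2 shNC. No library of one group reached the range of the other in either line, and the log2 fold was 1.28 (limma, SE 0.05, adjusted p = 1.07e-09) in SK-N-SH and -1.47 (limma, SE 0.05, adjusted p = 2.83e-10) in SK_N_BE2. ZNF85 (chr19:20923222-20950697, plus strand), whose promoter is shown above, averaged 3.65 ± 0.34 FPKM in SK-N-SH shL5 and 0.922 ± 0.0531 FPKM in SK-N-SH shNC. It averaged 0.948 ± 0.223 FPKM in SK_N_BE2 shL5 and 3.44 ± 0.198 FPKM in SK_N_BE2 shNC (SD, n = 3 each). These are folds of 3.96 higher in SK-N-SH and 3.63 lower in SK_N_BE2. ZNF93, whose protein binds and represses LINE-1 elements, stood at 1.95 ± 0.0863 FPKM in SK-N-SH shL5 and 0.519 ± 0.0544 in SK-N-SH shNC, a log2 fold of 0.96 (limma, SE 0.07, adjusted p = 9.95e-08). It stood at 0.551 ± 0.0734 FPKM in SK_N_BE2 shL5 and 2.1 ± 0.186 in SK_N_BE2 shNC, a log2 fold of -1.0 (limma, SE 0.07, adjusted p = 6.86e-08). ZNF91, a repressor of SVA elements, was 1.28-fold higher in SK-N-SH shL5 (adjusted p = 0.00402) and 1.39-fold lower in SK_N_BE2 shL5 (adjusted p = 8.32e-04, limma). Across the 21 members the ratio of mean FPKM ran from 1.24 (ZNF101) to 9.86 (ZNF90) in SK-N-SH.

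Promoters of this cluster also held few CG dinucleotides, a feature the rule did not use. The 18 with a matched promoter had a median of 10 per 300 bases, with a range of 8 to 18. The medians were 17 in cluster 13, 25.5 in cluster 18, 30.5 in cluster 19 and 21 in cluster 20. Over the 137 members, which share libraries and clusters, Spearman's rho between the CG count and the log2 fold was -0.22 in SK-N-SH and 0.21 in SK_N_BE2. Without cluster 6 it was 0.05 and -0.05 over 119 members, so the relation over all members rested on that cluster.

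Members close to silent in 2 of the 4 groups were sought as those whose higher mean in one pair of groups was at most 1 in 10 of the lower mean in the other pair. Since the choice of these genes uses the same values, they are described with no test. Of 153 members, 2 met this rule (1.31%), ZNF536 and ZNF544. Both were low in SK-N-SH shNC and SK_N_BE2 shL5, a pattern met by 5.44% of all genes tested. No member met it for any of the other 5 pairs of groups, although 5.34% of all genes were low in SK-N-SH shL5 and SK_N_BE2 shNC. For the other 4 pairs at most 0.00631% of all genes met it. No positional cluster was silent as a whole in any group.

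ZNF536 (chr19:30228290-30713538, plus strand, ENSG00000198597), which stands alone in its cluster, encodes a zinc finger repressor without a KRAB domain, known in mouse cells as a brake on neuronal differentiation. It had 6.14, 5.09 and 5.25 FPKM in SK-N-SH shL5 and 0.0124, 0.0306 and 0.0186 FPKM in SK-N-SH shNC, where it had 10 reads over the 3 libraries. It was 267-fold higher in SK-N-SH shL5. It had 0 reads in the 3 SK_N_BE2 shL5 libraries and 6.58, 6.23 and 5.82 FPKM in SK_N_BE2 shNC, at least 944-fold lower in SK_N_BE2 shL5 by a floor of 3 reads over the group, which covers counting error only. In both lines the groups did not overlap, and 10.5% of the exon bases of ZNF536 lie also in another gene on the same strand. ZNF544 (chr19:58228594-58277495, plus strand, ENSG00000198131), a member of cluster 20, had 1.96, 2.2 and 1.96 FPKM in SK-N-SH shL5 and 0.0903, 0.0593 and 0.105 FPKM in SK-N-SH shNC, 24-fold higher in SK-N-SH shL5. In the second line it had 0.101, 0.0415 and 0.0391 FPKM in SK_N_BE2 shL5 and 2.18, 1.85 and 2.1 FPKM in SK_N_BE2 shNC, 33.7-fold lower in SK_N_BE2 shL5. Neither promoter shown for these genes is poor in CG dinucleotides.

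With a limit of 1 in 5 in place of 1 in 10, ZNF253 and ZNF90 of cluster 6 joined them, again low in the same pair of groups. That made 2.61% of members, against 7.01% of all genes tested. ZNF253 (chr19:19865886-19894674, plus strand, ENSG00000256771) had 6.87, 7.88 and 7.38 FPKM in SK-N-SH shL5 and 1.18, 1.17 and 0.826 FPKM in SK-N-SH shNC. It had 0.689, 0.62 and 0.877 FPKM in SK_N_BE2 shL5 and 7.31, 6.86 and 7.82 FPKM in SK_N_BE2 shNC. It was thus reduced rather than silent in the low groups, and no library of these overlapped the high ones. ZNF90 (chr19:20077994-20127076, plus strand, ENSG00000213988) had 2.32, 2.09 and 1.89 FPKM in SK-N-SH shL5 and 0.267, 0.148 and 0.224 FPKM in SK-N-SH shNC. It had 0.0664, 0.106 and 0.222 FPKM in SK_N_BE2 shL5 and 2.04, 2.0 and 2.12 FPKM in SK_N_BE2 shNC.

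**Figure D3:**
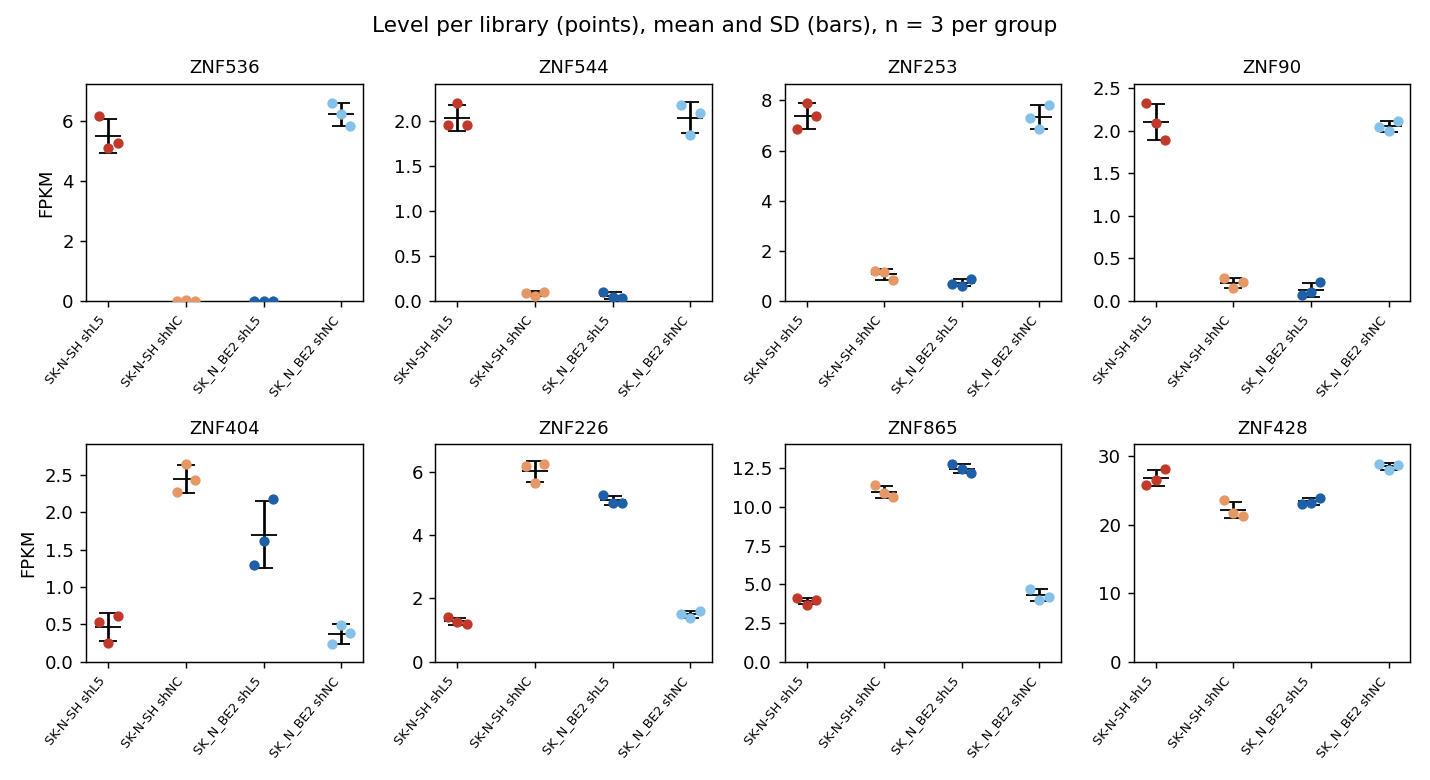
FPKM (vertical axis, from 0) of 8 members in the 4 groups (horizontal axis): points are libraries, the wide bar is the mean and the error bar the SD of 3 libraries. ZNF536, ZNF544, ZNF253 and ZNF90 are high in SK-N-SH shL5 and SK_N_BE2 shNC, ZNF404, ZNF226 and ZNF865 are high in the other groups, and ZNF428 shares the high pair of the first 4 with smaller ratios.

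The 4 clusters of the long arm from 43.5 Mb to the telomere ran the other way. So did most coding genes with other names inside each of them, so the direction was not particular to the zinc finger members. Of the other coding genes of all chromosome 19, 55.2% were lower in SK-N-SH shL5 and 58.4% higher in SK_N_BE2 shL5. To set beside their counts, 39.0% of all genes tested were lower in SK-N-SH shL5 and 39.9% higher in SK_N_BE2 shL5. Cluster 19, at 55.5 to 56.7 Mb, held 14 members, and all 14 were lower in SK-N-SH shL5 than in SK-N-SH shNC (median log2 fold -0.50). In SK_N_BE2 shL5, 12 of the 14 were higher than in SK_N_BE2 shNC (median 0.47), and ZNF581 and ZNF667 did not pass. Its summed level ran from 55.9 to 61.3 FPKM in SK-N-SH shL5 and from 99.5 to 102 FPKM in SK-N-SH shNC. It ran from 89.9 to 97.2 FPKM in SK_N_BE2 shL5 and from 56.8 to 61.3 FPKM in SK_N_BE2 shNC. ZNF865 (chr19:55605405-55617269, plus strand) had 4.13, 3.69 and 3.96 FPKM in SK-N-SH shL5 and 11.4, 10.9 and 10.6 FPKM in SK-N-SH shNC. It had 12.7, 12.4 and 12.2 FPKM in SK_N_BE2 shL5 and 4.72, 3.96 and 4.19 FPKM in SK_N_BE2 shNC. The log2 fold was -1.28 (limma, SE 0.06, adjusted p = 1.93e-09) in SK-N-SH and 1.35 (limma, SE 0.06, adjusted p = 1.13e-09) in SK_N_BE2, with no overlap between groups in either line. Its neighbours did the same: ZNF784 was 3.52-fold lower in SK-N-SH shL5 and 2.83-fold higher in SK_N_BE2 shL5, and ZNF524 was 2.86-fold lower in SK-N-SH shL5 and 2.45-fold higher in SK_N_BE2 shL5. ZNF471 had 0.603, 0.492 and 0.357 FPKM in SK-N-SH shL5 and 2.47, 2.28 and 2.88 FPKM in SK-N-SH shNC, 5.26-fold lower.

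Cluster 13, at 43.5 to 44.5 Mb, had 11 of 15 members lower and 2 higher in SK-N-SH shL5 (median log2 fold -0.66), and 12 higher and 1 lower in SK_N_BE2 shL5 (median 0.51). ZNF226 (chr19:44165073-44178381, plus strand) had the most positive difference between the lines of all members. It had 1.4, 1.26 and 1.18 FPKM in SK-N-SH shL5 and 6.19, 5.64 and 6.24 FPKM in SK-N-SH shNC. It had 5.26, 5.03 and 5.01 FPKM in SK_N_BE2 shL5 and 1.52, 1.38 and 1.6 FPKM in SK_N_BE2 shNC, and its log2 fold was -1.62 (limma, SE 0.06, adjusted p = 2.46e-10) in SK-N-SH and 1.29 (limma, SE 0.06, adjusted p = 1.69e-09) in SK_N_BE2. ZNF45 averaged 1.96 ± 0.257 FPKM in SK-N-SH shL5 and 6.33 ± 0.176 in SK-N-SH shNC, and 6.29 ± 0.541 in SK_N_BE2 shL5 and 2.22 ± 0.0922 in SK_N_BE2 shNC. ZNF404 and ZNF471 had the largest falls by ratio of all members in SK-N-SH. ZNF404 had 0.527, 0.255 and 0.617 FPKM in SK-N-SH shL5 and 2.27, 2.65 and 2.44 FPKM in SK-N-SH shNC, 5.26-fold lower. It also had the largest rise in SK_N_BE2, with 1.3, 1.62 and 2.18 FPKM in SK_N_BE2 shL5 and 0.236, 0.496 and 0.39 FPKM in SK_N_BE2 shNC, 4.55-fold higher. ZNF224, a KRAB repressor known as a partner of WT1, was 3.21-fold lower in SK-N-SH shL5 and 2.02-fold higher in SK_N_BE2 shL5. The exceptions were ZNF428 and ZNF576 at the cluster's proximal end, both higher in SK-N-SH shL5.

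In cluster 18, at 51.6 to 53.6 Mb, 17 of 24 members were lower and 4 higher in SK-N-SH shL5, and 16 were higher and 4 lower in SK_N_BE2 shL5. In cluster 20, at 57.2 to 58.5 Mb, 19 of 28 were lower and 4 higher in SK-N-SH shL5. There 18 were higher and 4 lower in SK_N_BE2 shL5. The lower share in SK-N-SH shL5 was 70.8% in cluster 18 and 67.9% in cluster 20, against 39.0% of all genes tested. The higher share in SK_N_BE2 shL5 was 66.7% and 64.3%, against 39.9% of all genes tested. The members that ran against their cluster were the same in both lines: ZNF649, ZNF616, ZNF677 and ZNF331 in cluster 18, and ZNF551, ZNF586, ZNF544 and ZNF8 in cluster 20. Each was higher in SK-N-SH shL5 and lower in SK_N_BE2 shL5 than in the shNC libraries of the same line. They are named for running against their cluster, after their values were seen. ZNF677, often methylated in tumours, had 2.07, 2.35 and 2.2 FPKM in SK-N-SH shL5 and 0.643, 0.628 and 0.75 FPKM in SK-N-SH shNC, and 0.427, 0.449 and 0.483 FPKM in SK_N_BE2 shL5 and 2.23, 1.81 and 2.02 FPKM in SK_N_BE2 shNC. ZNF331, an imprinted gene, was 1.7-fold higher in SK-N-SH shL5 and 2.41-fold lower in SK_N_BE2 shL5. Among those that followed their cluster, ZNF419 was 4.0-fold lower in SK-N-SH shL5 and 2.92-fold higher in SK_N_BE2 shL5. ZNF134, the highest of cluster 20, averaged 2.45 ± 0.164 FPKM in SK-N-SH shL5 and 5.54 ± 0.418 in SK-N-SH shNC, and 6.06 ± 0.336 in SK_N_BE2 shL5 and 2.45 ± 0.262 in SK_N_BE2 shNC. ZNF480, the highest of cluster 18, was 1.48-fold lower in SK-N-SH shL5 and 1.34-fold higher in SK_N_BE2 shL5. ZNF415 was 2.81-fold lower in SK-N-SH shL5 and 3.13-fold higher in SK_N_BE2 shL5, and ZNF416 was 1.86-fold lower in SK-N-SH shL5 and 2.94-fold higher in SK_N_BE2 shL5.

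Of the remaining 4 clusters, cluster 3 ran mostly the way of cluster 6, and the others were mixed. Over all genes tested, 40.7% were higher and 39.0% lower in SK-N-SH shL5. In SK_N_BE2 shL5 these shares were 39.9% and 40.2%. In cluster 3, at 8.5 to 9.8 Mb, 6 of 10 members were higher and 1 lower in SK-N-SH shL5, and 7 were lower and 1 higher in SK_N_BE2 shL5. The 1 that ran against the rest in both lines was ZNF846, with 0.494, 0.632 and 0.57 FPKM in SK-N-SH shL5 and 2.54, 2.51 and 2.58 FPKM in SK-N-SH shNC, and 1.29, 1.59 and 1.63 FPKM in SK_N_BE2 shL5 and 0.643, 0.659 and 0.478 FPKM in SK_N_BE2 shNC. ZNF317, the highest of this cluster, did not pass in either line, with log2 folds of 0.02 in SK-N-SH and -0.052 in SK_N_BE2 (SE 0.07 each). In cluster 4, at 11.5 to 12.6 Mb, 3 of 11 members were higher (27.3%) and 4 lower (36.4%) in SK-N-SH shL5. In SK_N_BE2 shL5, 2 were higher (18.2%) and 4 lower (36.4%). All these shares were below those of all genes tested. The count of 4 lower in SK_N_BE2 shL5 was 2 without SK_N_BE2 shL5 replicate 1 or without SK_N_BE2 shNC replicate 2 or 3. ZNF627, its highest member, was 1.21-fold higher in SK-N-SH shL5 and 1.13-fold lower in SK_N_BE2 shL5. In cluster 10, at 36.2 to 37.8 Mb, 3 of 14 were higher and 7 lower in SK-N-SH shL5, and 4 were higher and 4 lower in SK_N_BE2 shL5, where the 4 higher became 2 without SK_N_BE2 shL5 replicate 3 and 1 after rescaling to TPM. In cluster 9, at 34.7 to 35 Mb, 1 of 5 was higher and 2 lower in SK-N-SH shL5, the 2 lower becoming 1 without SK-N-SH shL5 replicate 3, and 1 was higher and 2 lower in SK_N_BE2 shL5. ZNF302, its highest member, averaged 6.07 ± 0.594 FPKM in SK-N-SH shL5 and 6.04 ± 0.316 in SK-N-SH shNC, a difference that did not pass. It averaged 3.95 ± 0.327 in SK_N_BE2 shL5 and 6.71 ± 0.0688 in SK_N_BE2 shNC, 1.7-fold lower in SK_N_BE2 shL5.

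Of 13 chromosome 19 ZNF genes chosen for a known role, 9 were members and 11 were tested. In SK-N-SH shL5 4 of the 11 were higher and 3 lower (63.6% called, against 79.8% of all genes tested). In SK_N_BE2 shL5 1 was higher and 5 lower (54.5% called, against 80.0% of all genes tested). ZNF274, which brings SETDB1 to the 3′ ends of zinc finger genes, had 1.29, 1.1 and 1.09 FPKM in SK-N-SH shL5 and 1.09, 1.06 and 1.06 FPKM in SK-N-SH shNC, and 1.05, 0.987 and 0.884 FPKM in SK_N_BE2 shL5 and 0.99, 0.90 and 1.12 FPKM in SK_N_BE2 shNC. Its log2 folds of 0.062 (limma, SE 0.07, adjusted p = 0.423) in SK-N-SH and -0.021 (limma, SE 0.07, adjusted p = 0.789) in SK_N_BE2 did not pass. The close paralogs ZNF587 and ZNF417, both binders of HERV-K elements, differed in pattern. ZNF587 averaged 1.66 ± 0.152 FPKM in SK-N-SH shL5 and 3.55 ± 0.0442 in SK-N-SH shNC, and 2.94 ± 0.203 in SK_N_BE2 shL5 and 1.8 ± 0.211 in SK_N_BE2 shNC, and it passed in both lines. ZNF417 averaged 1.61 ± 0.0999 FPKM in SK-N-SH shL5 and 1.96 ± 0.107 in SK-N-SH shNC, and 1.32 ± 0.122 in SK_N_BE2 shL5 and 1.68 ± 0.39 in SK_N_BE2 shNC, and it passed in neither. Of 50-base stretches, ZNF417 shares 31.1% and ZNF587 19.5% with other genes, so reads of the pair may be misassigned. ZNF667 was 1.4-fold lower in SK-N-SH shL5 and had a log2 fold of 0.016 in SK_N_BE2, which did not pass. ZNF569 passed in neither line, with a log2 fold of -0.14 in SK-N-SH and 0.13 in SK_N_BE2. The smallest differences between the lines' effects were those of ZNF417, ZNF614 and ZNF44, at -0.017, 0.019 and 0.03 on the log2 scale, and their sign turned when single libraries were left out.

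Comparisons across the labelled lines were made because earlier results had shown these groups to be alike. In SK-N-SH shL5 against SK_N_BE2 shNC, limma called 0 of 153 members, while 5.39% of all genes tested passed (2.26% higher, 3.12% lower). At an unadjusted p under 0.05, 10 members passed, against 18.6% of all genes tested, and voom on whole reads called 0 members after adjustment and 9 before. The smallest adjusted p was 0.120, and log2 folds ran from -0.27 to 0.30. Without SK-N-SH shL5 replicate 3, 1 member passed, ZNF787, with a log2 fold of -0.21 and limma adjusted p = 0.0460. A p above the threshold does not show that levels were equal. The 4 genes low in the other pair of groups had these means here. ZNF536 averaged 5.5 ± 0.567 FPKM in SK-N-SH shL5 and 6.21 ± 0.378 in SK_N_BE2 shNC, and ZNF544 averaged 2.04 ± 0.14 FPKM in SK-N-SH shL5 and 2.04 ± 0.174 in SK_N_BE2 shNC. ZNF253 averaged 7.38 ± 0.502 FPKM in SK-N-SH shL5 and 7.33 ± 0.48 in SK_N_BE2 shNC, and ZNF90 averaged 2.1 ± 0.214 FPKM in SK-N-SH shL5 and 2.05 ± 0.0613 in SK_N_BE2 shNC. The sum over cluster 6 averaged 62.6 ± 1.85 FPKM in SK-N-SH shL5 and 63.1 ± 1.25 FPKM in SK_N_BE2 shNC.

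In SK_N_BE2 shL5 against SK-N-SH shNC, 54 of 153 members passed, 7 higher and 47 lower, while 44.1% of all genes tested passed, 26.9% higher and 17.2% lower. The median log2 fold was -0.10 over the members and 0.02 over all genes. ZNF83 had 2.56, 3.07 and 2.88 FPKM in SK_N_BE2 shL5 and 4.46, 5.49 and 5.48 FPKM in SK-N-SH shNC, a log2 fold of -0.68 (limma, SE 0.08, adjusted p = 1.09e-04), with no overlap. ZNF471 had 1.28, 1.5 and 1.27 FPKM in SK_N_BE2 shL5 and 2.47, 2.28 and 2.88 FPKM in SK-N-SH shNC, 1.89-fold lower. ZNF224, ZNF846 and ZNF737 were 1.73-fold, 1.7-fold and 1.65-fold lower in SK_N_BE2 shL5. In all of these the 2 groups were both above, or in ZNF737 both below, the other pair of groups, so they differ within the higher or lower pair. The rises were smaller. ZNF787 had 13.9, 13.7 and 13 FPKM in SK_N_BE2 shL5 and 10.5, 10.9 and 10.5 FPKM in SK-N-SH shNC, a log2 fold of 0.32 (limma, SE 0.07, adjusted p = 0.00372), and ZNF486 was 1.37-fold higher (adjusted p = 0.0121, limma). ZNF473, a component of the histone mRNA 3′ end processing complex, was 1.25-fold higher (adjusted p = 0.0250), ZNF576 1.33-fold (adjusted p = 0.0126) and ZNF653 1.31-fold (adjusted p = 0.0348, all limma). Those of ZNF473 and ZNF653 no longer passed without single libraries of either group, with no filter on low values, after rescaling to TPM, or with only these groups fitted. Over all alternatives the adjusted p of ZNF473 reached 0.201 and that of ZNF653 0.191. That of ZNF576 did not pass without SK_N_BE2 shL5 replicate 2 or after rescaling to TPM (up to 0.0803), and that of ZNF486 with only these groups fitted (0.0564). The 7 higher members became 4 without SK_N_BE2 shL5 replicate 1 or SK-N-SH shNC replicate 3, and 2 after rescaling to TPM. The 47 lower members ranged from 32 to 48 when single libraries were left out and were 60 after rescaling to TPM.

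**Figure D4:**
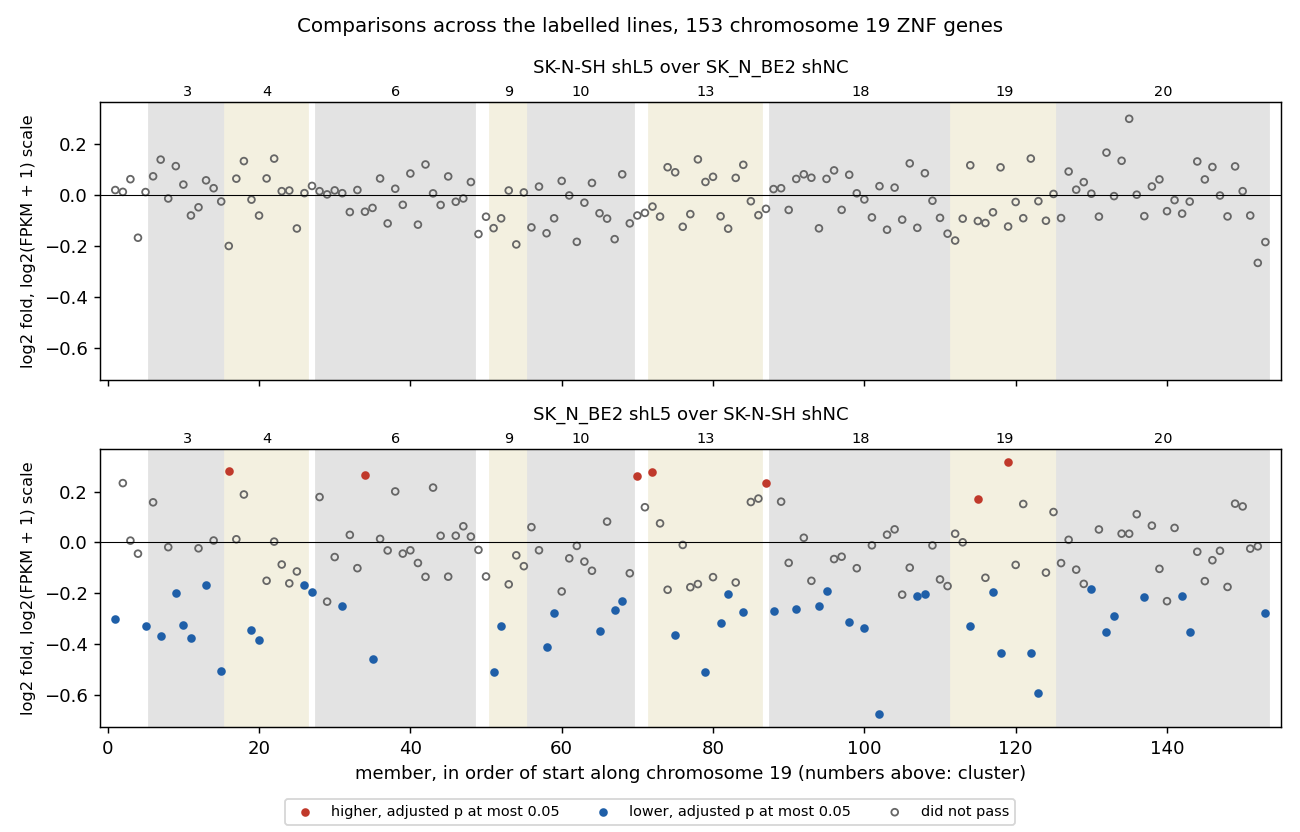
Log2 fold on the log2(FPKM + 1) scale (vertical axis) of each of the 153 members in order of start along chromosome 19 (horizontal axis), for SK-N-SH shL5 over SK_N_BE2 shNC (top) and SK_N_BE2 shL5 over SK-N-SH shNC (bottom), with the 9 clusters shaded. No point of the top panel passed the test, and 54 of the bottom panel did, 47 of them lower.

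Counts in other gene sets are given for comparison, with no test between sets. Of 185 ZNF genes of other chromosomes at the same level limit, 87 were higher (47.0%) and 58 lower (31.4%) in SK-N-SH shL5, and 55 were higher (29.7%) and 95 lower (51.4%) in SK_N_BE2 shL5. The median log2 fold of that set was 0.11 in SK-N-SH and -0.19 in SK_N_BE2, of opposite sign to the members' in both. Of 649 other protein-coding genes of chromosome 19, 201 were higher (31.0%) and 358 lower (55.2%) in SK-N-SH shL5, and 379 were higher (58.4%) and 181 lower (27.9%) in SK_N_BE2 shL5, shares near those of the members in SK-N-SH. Inside the 9 clusters lay 31 coding genes with other names. Of these, 3 were higher and 23 lower (74.2%, against 39.0% of all genes tested) in SK-N-SH shL5. In SK_N_BE2 shL5, 22 were higher (71.0%, against 39.9% of all genes tested) and 4 lower. Those lower in SK-N-SH shL5 were 4 of 6 in cluster 13, 2 of 2 in cluster 18, 6 of 7 in cluster 19 and 6 of 7 in cluster 20. Those higher in SK_N_BE2 shL5 were 4 of 6, 2 of 2, 5 of 7 and 7 of 7 in the same order. In SK_N_BE2 shL5 against SK-N-SH shNC, 4.58% of members were higher and 30.7% lower, and of the other chromosome 19 genes 37.9% were higher and 14.2% lower. Of 11 chromosome 19 zinc finger genes with other kinds of symbol, 2 were higher and 8 lower in SK-N-SH shL5, and 7 were higher and 2 lower in SK_N_BE2 shL5.

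The genes through which KRAB zinc finger proteins act were read as a list of 28 co-repressor and heterochromatin genes. In SK-N-SH shL5, 20 of 28 were higher and 6 lower than in SK-N-SH shNC (median log2 fold 0.45). These are 71.4% and 21.4%, against 40.7% and 39.0% of all genes tested. In SK_N_BE2 shL5, 4 were higher and 22 lower than in SK_N_BE2 shNC (median -0.48). These are 14.3% and 78.6%, against 39.9% and 40.2% of all genes tested. TRIM28, the KRAB-binding scaffold, had 77.9, 75.6 and 82.9 FPKM in SK-N-SH shL5 and 109, 100.3 and 92.7 FPKM in SK-N-SH shNC, a log2 fold of -0.35 (limma, SE 0.07, adjusted p = 9.48e-04). It had 127, 112 and 111 FPKM in SK_N_BE2 shL5 and 94.7, 88.8 and 87.1 FPKM in SK_N_BE2 shNC, a log2 fold of 0.37 (limma, SE 0.07, adjusted p = 6.26e-04). In both lines it thus ran against most of the list. The de novo DNA methyltransferase gene DNMT3A averaged 27.1 ± 0.638 FPKM in SK-N-SH shL5 and 4.96 ± 0.127 in SK-N-SH shNC. It averaged 3.57 ± 0.27 in SK_N_BE2 shL5 and 24.9 ± 0.473 in SK_N_BE2 shNC, 5.47-fold higher in SK-N-SH shL5 and 6.98-fold lower in SK_N_BE2 shL5. TRIM24, a relative of TRIM28, was 4.68-fold higher in SK-N-SH shL5 and 4.18-fold lower in SK_N_BE2 shL5. ATF7IP2, a relative of the SETDB1 cofactor ATF7IP, had 1.91, 1.52 and 1.45 FPKM in SK-N-SH shL5 and 1 read in SK-N-SH shNC. It had 0 reads in SK_N_BE2 shL5 and 1.33, 1.5 and 1.58 FPKM in SK_N_BE2 shNC, at least 165-fold lower in SK_N_BE2 shL5 by the floor of 3 reads over the group.

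SETDB1, the methyltransferase itself, was lower in both lines: 10.7, 10.1 and 10.4 FPKM in SK-N-SH shL5 against 12.2, 11.8 and 12.2 in SK-N-SH shNC, and 8.88, 8.41 and 7.65 in SK_N_BE2 shL5 against 11, 10.5 and 10.1 in SK_N_BE2 shNC. In SK-N-SH shL5 against SK_N_BE2 shNC, 2 of the 28 passed (7.14%), near the 5.39% of all genes tested. They were CHD3 and MPHOSPH8, both lower, with limma adjusted p = 0.0266 and 0.0356. Neither passed after rescaling to TPM or without any 1 of several libraries, with adjusted p up to 0.102 and 0.133. In SK_N_BE2 shL5 against SK-N-SH shNC, 8 of the 28 were higher and 7 lower. In all 53.6% of the list passed, against 44.1% of all genes tested (26.9% higher, 17.2% lower). CHD3 was 1.69-fold lower, SETDB1 1.45-fold lower and SUV39H1 1.49-fold higher. TRIM28 was 1.16-fold higher (limma adjusted p = 0.0342), which did not hold without SK_N_BE2 shL5 replicate 1 or SK-N-SH shNC replicate 2 or 3, with no filter on low values, after rescaling to TPM, or with only these groups fitted (adjusted p up to 0.513).

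Counting could split reads for some members. Of the 153, 31 are uncertain by annotation on GRCh38: 18 share at least 10% of exon bases with another gene on the same strand, 13 with a gene on the opposite strand, and 5 share at least 10% of their 50-base stretches with other genes. Among those named, these are ZNF536, ZNF90, ZNF404, ZNF224, ZNF417, ZNF587, ZNF146, ZNF428, ZNF358, ZNF524, ZNF581, ZNF653, ZNF8 and ZNF324. The labels do not say whether strand was used in counting. Without the 31, 100 of 122 members passed in SK-N-SH shL5 against SK-N-SH shNC and 96 of 122 in SK_N_BE2 shL5 against SK_N_BE2 shNC, an alternative chosen after seeing the data.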

How the data were processed

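RNA of 12 libraries (4 groups of 3) was sequenced after library preparation with a NEBNext Ultra kit from 3 µg of RNA, per the labels' protocols. FPKM values per gene were deposited by the authors in 1 table. The submitters' processing notes name HISAT2 2.0.5, featureCounts 1.5.0-p3 and the mouse build mm10. The genes are human, and the starts and ends of all 153 members equal those of GENCODE 29 on GRCh38, which is the build of the coordinates given. Whole reads were recovered by multiplying FPKM by gene length (100% of values whole within 0.05). No sample column was left without a sample. FPKM is relative to a scaling total per library, so a few abundant genes can shift all others. This total, as implied by the values, was not the recovered reads. It was 18020826 against 18702407 reads in SK_N_BE2 shL5 replicate 1, and 17096902 against 16459726 reads in SK_N_BE2 shNC replicate 1. Reads exceeded the total in every SK_N_BE2 shL5 library and fell below it in every SK_N_BE2 shNC and SK-N-SH shL5 library. How the total was set is not known here. Rescaling to TPM takes out such a factor.

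Tests used limma 3.58.1 in R 4.3.3 on log2(FPKM + 1) with an intensity trend, 4 group means over 12 libraries and genes with mean FPKM of at least 0.5, with Benjamini-Hochberg adjustment over 15856 genes. Fold changes on this scale understate those of low genes, and ratios are of mean FPKM. The steps were tested on simulated data. Tables and figures used Python 3.11.15, pandas 2.3.3 and matplotlib 3.10.9. The genes named were, per comparison, the 5 largest rises and 5 largest falls with no overlap between groups, the members low in 2 groups, the 3 highest, the highest of each cluster, the 3 smallest line differences, the known-role list, and from the co-repressor list the 3 largest folds per comparison. The members, lists and tests were chosen with earlier results of these data known. Alternatives were other pseudocounts, filters, scalings, a replicate block, voom and leaving out each library.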

Additional observations from a re-analysis of the deposited data

Results flagged for a closer look

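The comparison of shL5 with shNC differed between the labelled lines for 136 of the 153 members, 82 of them positive and 54 negative. The interaction test was used (SK_N_BE2 effect minus SK-N-SH effect, limma, adjusted over all genes). The 5 most negative differences on the log2 scale were those of ZNF536 (-5.52), ZNF253 (-4.30), ZNF544 (-3.00), ZNF90 (-2.79) and ZNF738 (-2.75). ZNF738 lay in cluster 6 with ZNF253 and ZNF90. The 5 most positive were those of ZNF226 (2.91), ZNF784 (2.68), ZNF865 (2.63), ZNF45 (2.49) and ZNF524 (2.27). ZNF226 and ZNF45 lay in cluster 13, and ZNF784, ZNF865 and ZNF524 in cluster 19. Since TSPYL5 ran opposite to its label in SK-N-SH and MYCN was near 0 in 1 group of each labelled line, an effect of the hairpin and a difference between cell lines cannot be told apart in this test. Of all genes tested 84.9% differed in the same way, so the count for the members is near the background. No separate search for outlying libraries was made in the groups of 3, but with each library left out in turn 132 to 135 members passed.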

How the results depend on the processing

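Of the counts of members called, most stayed within 1.5 times the reported value. With a filter of mean FPKM of at least 2, which leaves 68 members, 55 were called in SK-N-SH shL5 against SK-N-SH shNC, 57 in SK_N_BE2 shL5 against SK_N_BE2 shNC, 28 in SK_N_BE2 shL5 against SK-N-SH shNC and 61 in the difference between the lines. The members low in 2 groups numbered 4 by the limit of 1 in 5 and 1 among members of at least 2 FPKM. Leaving out each library gave 117 to 126 calls in SK-N-SH, 113 to 120 in SK_N_BE2, 36 to 56 in SK_N_BE2 shL5 against SK-N-SH shNC, and 132 to 135 for the difference. It gave 0 to 1 in SK-N-SH shL5 against SK_N_BE2 shNC, the 1 without SK-N-SH shL5 replicate 3, and 2 to 3 members low in 2 groups, the 3 without SK-N-SH shNC replicate 1. With replicate number as a block the counts were 125, 118, 0, 51 and 134, in the order SK-N-SH, SK_N_BE2, SK-N-SH shL5 against SK_N_BE2 shNC, SK_N_BE2 shL5 against SK-N-SH shNC, and the difference. Deviations of each gene from its group mean were correlated between same-numbered libraries of the groups compared. These correlations lay between -0.08 and 0.10. They gave no sign that the numbers pair the libraries, but cannot exclude it. Voom gave 125, 119, 0, 57 and 135 in the same order, and rescaling to TPM 123, 111, 0, 62 and 133. Of the smallest differences between the lines, that of ZNF417 ran from -0.11 to 0.10 when single libraries were left out. That of ZNF614 ran from -0.034 to 0.12 and was -0.056 after rescaling to TPM. That of ZNF44 ran from -0.034 to 0.087 and was -0.024 after rescaling. The cause was not tested. With symbols that continue after the digits, chosen after seeing the data, 131, 125, 0, 58 and 141 of 158 genes were called. Without the 31 members of uncertain counting it was 100, 96, 0, 41 and 107 of 122. Divided at 250 kb there were 11 clusters of at least 5 members, and at 1000 kb 8. The edgeR quasi-likelihood test and TMM scaling were not run. The fit of only the groups compared gives no value for the difference between the lines. The median member had 165.5 reads per library, and how depth limits the calls was not tested.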

Other observations

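Among the 87 chromosome 19 ZNF genes below the limit of 1 FPKM, 4 more were nearly absent in SK-N-SH shNC and SK_N_BE2 shL5, and 3 of them, ZNF208, ZNF98 and ZNF728, lie in cluster 6. They were chosen after their values were seen, by the same limit of 1 in 10, and make 4.60% of the 87, against 5.44% of all genes tested, a share near the background. ZNF208 had 156 reads over the 3 libraries in SK-N-SH shL5 and 0 in SK-N-SH shNC, and 4 in SK_N_BE2 shL5 and 201 in SK_N_BE2 shNC. ZNF728 had 29 reads in SK-N-SH shL5 and 0 in SK-N-SH shNC, and 0 in SK_N_BE2 shL5 and 48 in SK_N_BE2 shNC. ZNF98 had 11 reads in SK-N-SH shL5 and 0 in SK-N-SH shNC, and 0 in SK_N_BE2 shL5 and 31 in SK_N_BE2 shNC. ZNF418 of cluster 20 had 106 reads in SK-N-SH shL5 and 7 in SK-N-SH shNC, and 7 in SK_N_BE2 shL5 and 72 in SK_N_BE2 shNC. Of the 48 genes below the limit that were tested, 13 were higher and 24 lower in SK-N-SH shL5. In SK_N_BE2 shL5 18 were higher and 17 lower. In all 77.1% and 72.9% passed, against 79.8% and 80.0% of all genes tested.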
